A study of Mus musculus with 3 samples.

Results

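The comparison described here set the kidney of old vehicle-treated male mice (20 months) against the kidney of young male mice (3 to 4 months), each profiled as 1 single-cell RNA library. The 2 libraries were chosen by their labels, old with control treatment and young with control treatment, and are 2 of the 3 libraries of the study. Within them, all cell barcodes with at most 50% of counts from mitochondrially encoded (mt-) genes were taken. This left 8230 young and 5945 old vehicle barcodes, 14175 together. Before that limit the 3 libraries held 22679 deposited barcodes. The remaining library came from 20-month-old male mice given D+Q, and its 7888 barcodes are quoted beside the comparison as a second aged sample. The series' design text calls the aged controls vehicle-treated. Strain, the vehicle, the number of mice behind each library and the hour of collection were not given in the sources used here. Kidneys were decapsulated, minced, digested with collagenase and treated to lyse red cells, and the suspension was made into 3′ libraries on a droplet platform. Counts were summed over barcodes in each library and scaled to CPM (the count of a gene relative to all counts of its library, on the usual fixed total), so each value below is a whole-suspension level of 1 library. With 1 library per group there is no spread between replicates, no test was possible, and the 95% intervals cover counting error only.

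The proximal tubule makes up most of the mouse kidney cortex. It reclaims phosphate, glucose, amino acids and filtered protein, secretes drugs and organic anions, makes glucose, and draws most of its energy from fatty acid oxidation under the nuclear receptor PPARα. Its enzymes and transporters differ between the sexes under the action of androgens, and many follow the circadian clock. Distal segments fine-tune salt, water and acid excretion, and the urothelium, a stratified epithelium that lines the renal pelvis, is sampled to the extent that pelvis is left in the tissue.

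The young library held 23454900 counts in the barcodes used, with a median of 2406.5 counts per barcode, and the old vehicle library held 13794821, with a median of 1887. The share of counts from mt- genes was 8.97% in young, 6.79% in old vehicle and 8.95% in old D+Q, and the nuclear RNA Malat1 took 14.5%, 11.9% and 13.7%. Between 28 and 38 barcode sequences were shared by any pair of libraries. Markers of the labelled tissue were present in all 3 libraries, with a summed level of 10 proximal tubule markers of 14664 CPM in young, 15303 in old vehicle and 15184 in old D+Q. Several other marker sums differed more between young and old vehicle. The sum of 11 urothelium markers was 332 CPM in young, 63.0 in old vehicle and 135 in old D+Q, with 10 of the 11 lower in old vehicle than in young. The sum of 8 adipocyte markers was 320.0, 113 and 76.1 CPM, with all 8 lower in old vehicle. In the other direction, macrophage and monocyte markers summed to 61.4, 117 and 62.0 CPM, B and plasma cell markers to 10.7, 74.96 and 51.4 CPM, T and NK cell markers to 6.57, 14.8 and 6.75 CPM, and red blood cell markers to 322, 555 and 284 CPM. Of the other 11 sums, that of 4 proliferation markers differed past 1.5-fold, at 21.9, 12.5 and 11.4 CPM. Of the 10 macrophage and monocyte markers 8 were higher in old vehicle and 2 lower, with Lyz2 at 5.93 CPM in young and 30.4 in old vehicle. In sums over whole libraries, fewer cells of a type and less RNA per cell cannot be told apart.

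**Figure D1:**
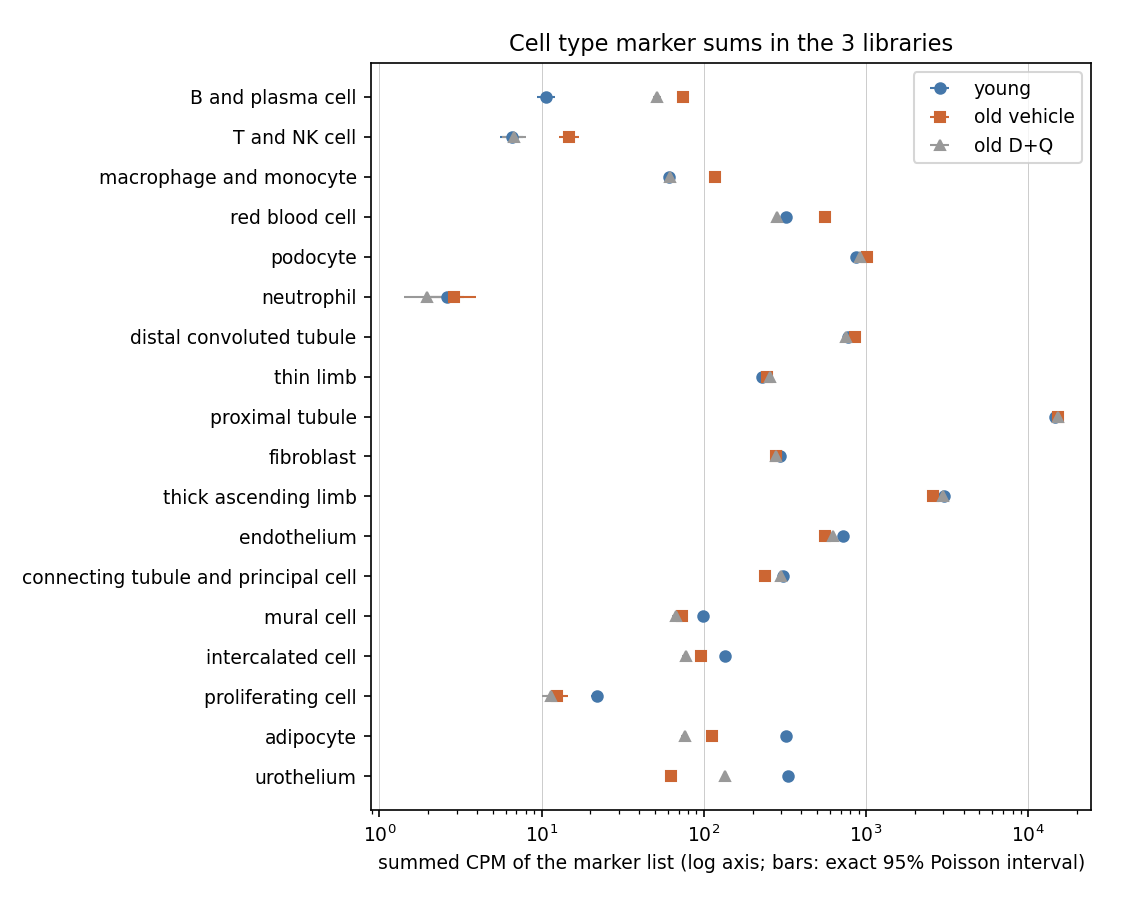
Summed CPM of 18 lists of cell type markers in the young, old vehicle and old D+Q libraries on a log axis, with exact 95% Poisson intervals, ordered by the ratio of old vehicle to young. Urothelium and adipocyte sums sit furthest below young in old vehicle (332 to 63.0 CPM and 320.0 to 113 CPM), and the B and plasma cell sum furthest above it (10.7 to 74.96 CPM).

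Most genes had like levels in the 2 libraries. Of the 33696 genes in the files, 22244 had a count in both libraries, 1981 only in young and 1067 only in old vehicle. Of the 12040 genes with at least 30 counts over both libraries and a mean of at least 5 CPM, 419 (3.48%) were higher in old vehicle past 1.5-fold and 410 (3.41%) were lower, which together are 6.89%. The median log2 ratio of old vehicle to young was 0.04, and the 10th and 90th percentiles were -0.35 and 0.38. The balance of the 2 directions depended on the scaling. When Malat1 and the mt- genes, which took a larger share of the young library, were left out of the total, 329 genes were higher and 686 lower, so that 32.4% of the genes past the threshold were higher, against 50.5% with the full total.

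**Figure D2:**
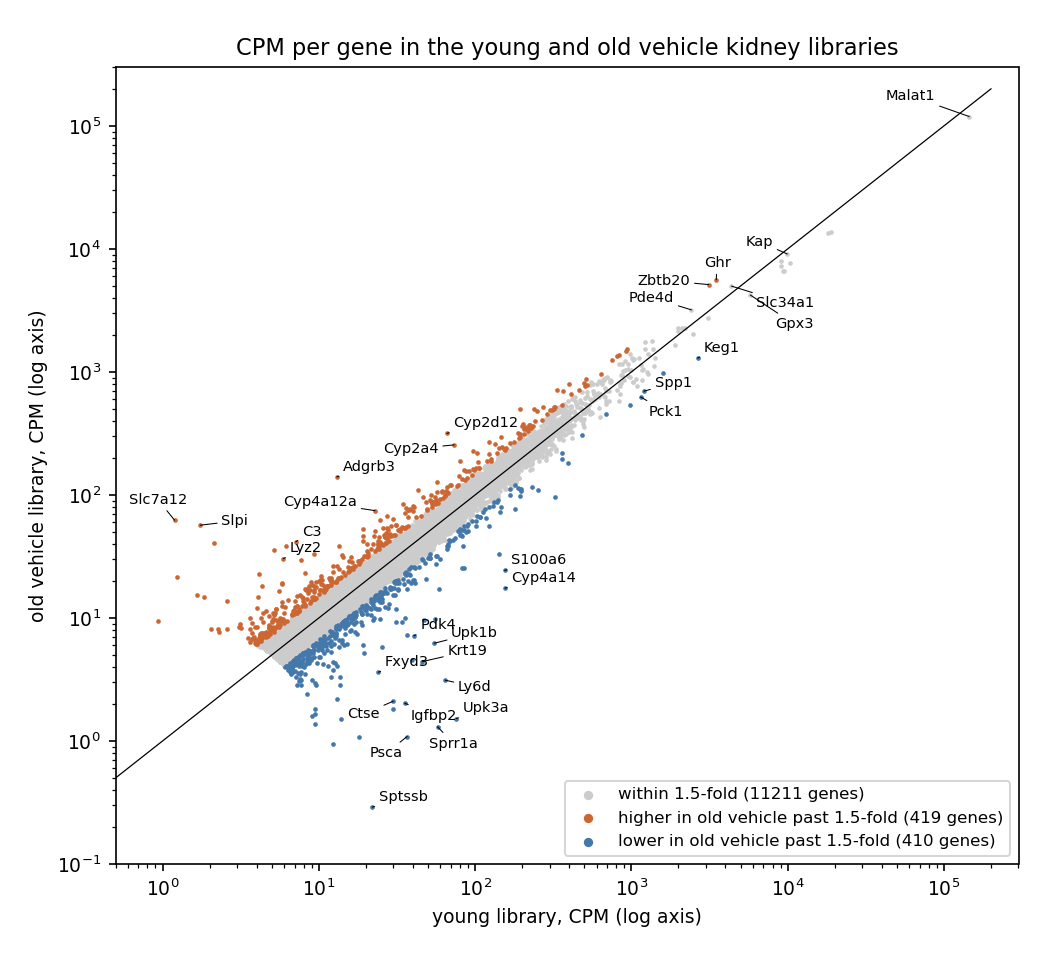
CPM of each of the 12040 genes above the floor in the young library (x axis) and the old vehicle library (y axis), both log axes, with the line of equal level. The 419 genes higher in old vehicle past 1.5-fold are orange, the 410 lower ones blue, and genes with large ratios or differences are named, among them Slc7a12 and Adgrb3 above the line and Sptssb and Cyp4a14 below it.

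The genes with the largest ratios above young fell into a few kinds. Slc7a12, an amino acid transporter gene of the proximal tubule with a known female bias in mice, was at 1.19 CPM in young, 62.3 in old vehicle and 86.6 in old D+Q, a log2 ratio of 5.68 between old vehicle and young (interval 5.16 to 6.30). Adgrb3, an adhesion G protein-coupled receptor, was at 13.0, 140.1 and 95.8 CPM, a log2 ratio of 3.42 (3.25 to 3.60). Both were high in the 2 aged libraries alike and spread over many barcodes, with 14.0% of Slc7a12 counts and 5.23% of Adgrb3 counts of the old vehicle library in the 10 barcodes that held most of them. Pcdh11x, a protocadherin, was at 6.18, 38.6 and 36.3 CPM, and Mir124-2hg, the host transcript of a microRNA, at 4.14, 22.8 and 27.0 CPM. Atp8b4, a phospholipid flippase gene, was at 13.4, 38.6 and 29.5 CPM, and Ceacam2, a cell adhesion gene, at 8.10, 23.1 and 17.6 CPM. Dgkb, a diacylglycerol kinase, was at 19.3, 52.6 and 42.1 CPM. In each of these 5 genes the old D+Q value lay nearer to old vehicle than to young. Slpi, a secreted protease inhibitor, differed from them in this, at 1.75 CPM in young, 56.8 in old vehicle and 3.23 in old D+Q, with 51.4% of its old vehicle counts in 10 barcodes.

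Among abundant genes, the largest CPM gains in old vehicle belonged mostly to long genes, several of which encode regulators. Ghr, the growth hormone receptor, was at 3491 CPM in young, 5619 in old vehicle and 4234 in old D+Q, a log2 ratio of 0.69 (0.67 to 0.70). Zbtb20, a zinc finger repressor, was at 3121, 5131 and 3397 CPM, a log2 ratio of 0.72. For Zbtb20 the old D+Q library stood close to young. The orphan receptor gene Esrrg was at 926, 1483 and 1054 CPM, the zinc finger gene Trps1 at 831, 1379.9 and 996 CPM, and Pkhd1, which encodes the ciliary protein fibrocystin, at 810.4, 1357 and 1089.6 CPM. The cyclic AMP phosphodiesterase gene Pde4d, at 2421, 3195 and 3011 CPM, and the phosphate transporter gene Slc34a1, at 4371, 4986 and 4480 CPM, had large CPM differences within 1.5-fold. In the genome Ghr spans 266 kb, Zbtb20 767, Esrrg 606, Trps1 236, Pkhd1 560 and Pde4d 1504, whereas Slc34a1 spans 17.4 kb. Long genes were higher as a class, with a median log2 ratio of 0.19 from 100 to 300 kb and 0.24 over 300 kb. The part of gene length in these gains was not tested. Of 30 nephron transcription factor genes, 2 were higher past 1.5-fold, Esrrg among them, and 1 was lower, Gata3, at 18.7, 9.35 and 12.5 CPM. Without the barcodes that carried urothelium markers the Gata3 log2 ratio went from -0.99 to -0.03.

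Transport genes of the proximal tubule stayed close to their young levels as a group. The shares over all tested genes were 3.48% higher and 3.41% lower. Of 25 tested solute carriers of the apical and basolateral membranes, 1 was higher past 1.5-fold, 0 were lower, and the median log2 ratio was 0.10, a value that became -0.00 when Malat1 and mt- genes were left out of the total. The higher one was Slc16a9, a monocarboxylate and carnitine transporter, at 221, 372 and 280.1 CPM in young, old vehicle and old D+Q. Among 21 amino acid transporters, Slc7a12 was higher, and the glutamine carrier Slc1a5 (51.5, 30.9 and 35.5 CPM) and the peptide carrier Slc15a2 (122, 80.3 and 86.6 CPM) were lower. Organic ion and drug transporters had a median log2 ratio of 0.26 over 29 genes, 5 of them higher and 3 lower, and 2 were higher with Malat1 and mt- genes left out of the total. Slco1a6, an organic anion carrier, was at 748, 1258 and 1104 CPM, and the efflux pump gene Abcc4 at 51.4, 90.3 and 81.3 CPM. Slc22a4, a carnitine and ergothioneine carrier, was at 65.7, 105 and 71.0 CPM. On the lower side stood the anion carrier gene Slc22a7, at 74.6, 44.3 and 40.2 CPM, and the efflux pump gene Abcc3, at 9.46, 1.67 and 4.10 CPM, whose log2 ratio of -2.48 became -0.90 without urothelium marker barcodes. Of 17 tested endocytosis genes, 2 were higher and 0 lower. They were the adaptor gene Dab2, at 938, 1522 and 1210.2 CPM, and the receptor gene Cubn, at 322, 495 and 405 CPM, while their partner receptor Lrp2 was at 865, 1153 and 1071 CPM, within 1.5-fold.

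Sex-biased enzymes and carriers of the kidney gave some of the largest differences in both directions. Of 17 tested genes known for higher levels in female mouse kidney, 10 were higher in old vehicle past 1.5-fold and 3 were lower, with a median log2 ratio of 0.70, beside 3.48% higher, 3.41% lower and a median of 0.04 over all tested genes. Cyp2a4, a steroid hydroxylase, was at 73.2 CPM in young, 255 in old vehicle and 284 in old D+Q, a log2 ratio of 1.80 (1.72 to 1.89), and its close paralog Cyp2a5 was at 43.4, 110.3 and 169 CPM. The hydroxyacid oxidase gene Hao2 was at 52.1, 88.7 and 117 CPM. The list did not move as a block, since the progesterone-metabolising enzyme gene Akr1c18 was at 12.4, 0.942 and 0.675 CPM, a log2 ratio of -3.67 (-4.65 to -2.92), and the fatty acid hydroxylase gene Cyp4a14 at 155, 17.5 and 42.7 CPM. Of 25 tested genes known for higher levels in males, 6 were higher and 2 lower, with a median of 0.21. Cyp4a12a, an androgen-dependent fatty acid hydroxylase, was at 22.9, 74.6 and 79.0 CPM, a log2 ratio of 1.71 (1.55 to 1.86). Cyp7b1, an oxysterol hydroxylase, was at 335, 709 and 345 CPM, and Cyp2j13 at 237, 503 and 416 CPM. The male-biased marker Kap, encoding the kidney androgen-regulated protein, was at 9942, 9095 and 10869.6 CPM, within 1.5-fold. Both sets thus held members at higher levels in the old vehicle library, and Prlr and several drug-handling genes belong to more than 1 list.

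Among 11 Cyp2d and Cyp2j enzymes, 3 were higher and 1 was lower, beside 3.48% and 3.41% over all tested genes. Cyp2d12 was at 66.0 CPM in young, 317 in old vehicle and 361 in old D+Q, a log2 ratio of 2.26 (2.18 to 2.35), and Cyp2d9 at 106, 165 and 200.5 CPM. Cyp2d26 went the other way, at 81.9, 25.5 and 30.0 CPM, a log2 ratio of -1.68 (-1.85 to -1.52). These genes have near-identical neighbours, as have Cyp2a4, Cyp2a5 and the Cyp4a genes, so the split of reads between them is uncertain. Serpina1a, one of a cluster of antitrypsin genes with the same caveat, was at 7.72, 29.8 and 36.4 CPM. In all of these genes the 2 aged libraries lay on the same side of the young one.

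Fatty acid oxidation genes and PPARα targets held many members below young. Of 58 tested, 17 were lower in old vehicle past 1.5-fold and 1 was higher, with a median log2 ratio of -0.17, beside 3.41% lower and 3.48% higher over all tested genes. Inducible targets were among the lower members, and the core enzyme Cpt1a was not. Cyp4a14, which hydroxylates fatty acids at their tail end, was at 155 CPM in young and 17.5 in old vehicle, a log2 ratio of -3.15 (-3.35 to -2.96), with 42.7 CPM in old D+Q. Pdk4, the kinase that shuts pyruvate out of oxidation, was at 40.6, 7.18 and 12.7 CPM, a log2 ratio of -2.49 (-2.81 to -2.20). Ehhadh, a peroxisomal enzyme of the same pathway, was at 325, 96.3 and 227 CPM, a log2 ratio of -1.76 (-1.84 to -1.67). All 3 were lowest in old vehicle, and in none of them did the intervals of the 2 libraries meet. Cyp4a10, a relative of Cyp4a14, was at 232, 117 and 138 CPM. The lipoprotein lipase inhibitor gene Angptl4 was at 40.0, 20.4 and 30.2 CPM, and the acyl-CoA thioesterase gene Acot1 at 29.8, 15.4 and 15.8 CPM. Acsl1, which activates fatty acids, was at 187, 114 and 129 CPM. By contrast the rate-limiting carnitine transferase gene Cpt1a was at 129, 147 and 137 CPM and the receptor gene Ppara itself at 261, 308 and 298 CPM. The coactivator gene Ppargc1a was at 297, 325 and 317 CPM. The values of these 3 lay within 1.5-fold of young. The lower members Cidec, Fabp4, Ucp2 and Txnip are also active outside the tubule, and Cidec and Fabp4 are adipocyte markers. Without the 299 young and 68 old vehicle barcodes that carried at least 3 adipocyte marker counts, 14 of 57 tested members were lower and 1 was higher.

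In glucose production and detoxification a minority of each list passed 1.5-fold. Over all tested genes 3.41% were lower and 3.48% higher. Pck1, the gatekeeper enzyme of gluconeogenesis, was at 1147 CPM in young, 625 in old vehicle and 672 in old D+Q, a log2 ratio of -0.87 (-0.91 to -0.84). It was the only one of 18 tested gluconeogenesis and fructose genes that was lower past 1.5-fold, and the alanine aminotransferase gene Gpt was the only one higher, at 8.40, 14.2 and 13.8 CPM. Keg1, a kidney gene of the glycine acyltransferase family, was at 2655, 1298 and 2206 CPM, a log2 ratio of -1.03. It was among the 3 of 22 conjugation genes that were lower, with the glucuronosyltransferase Ugt2b38 (973, 534 and 680.1 CPM) and the sulfotransferase Sult1a1 (12.0, 5.94 and 9.21 CPM), while 2 were higher. Of 40 tested glutathione, peroxide and NRF2 pathway genes, 6 were lower and 2 higher, with a median log2 ratio of 0.00. The glutathione transferase Gstt2 was at 1584, 985 and 784 CPM, and Gstm1 at 253, 110.1 and 114 CPM. Gsta4, which clears lipid peroxidation products, was at 55.3, 9.79 and 20.2 CPM, whereas its family member Gsta3 was at 27.6, 52.3 and 59.3 CPM. The extracellular glutathione peroxidase gene Gpx3 was at 5771, 4218 and 4781 CPM and the ferritin gene Fth1 at 2474, 2028 and 1914 CPM, both within 1.5-fold. Without urothelium marker barcodes the log2 ratio of Gsta4 went from -2.49 to -1.63 and that of Gstm1 from -1.20 to -0.59.

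**Figure D3:**
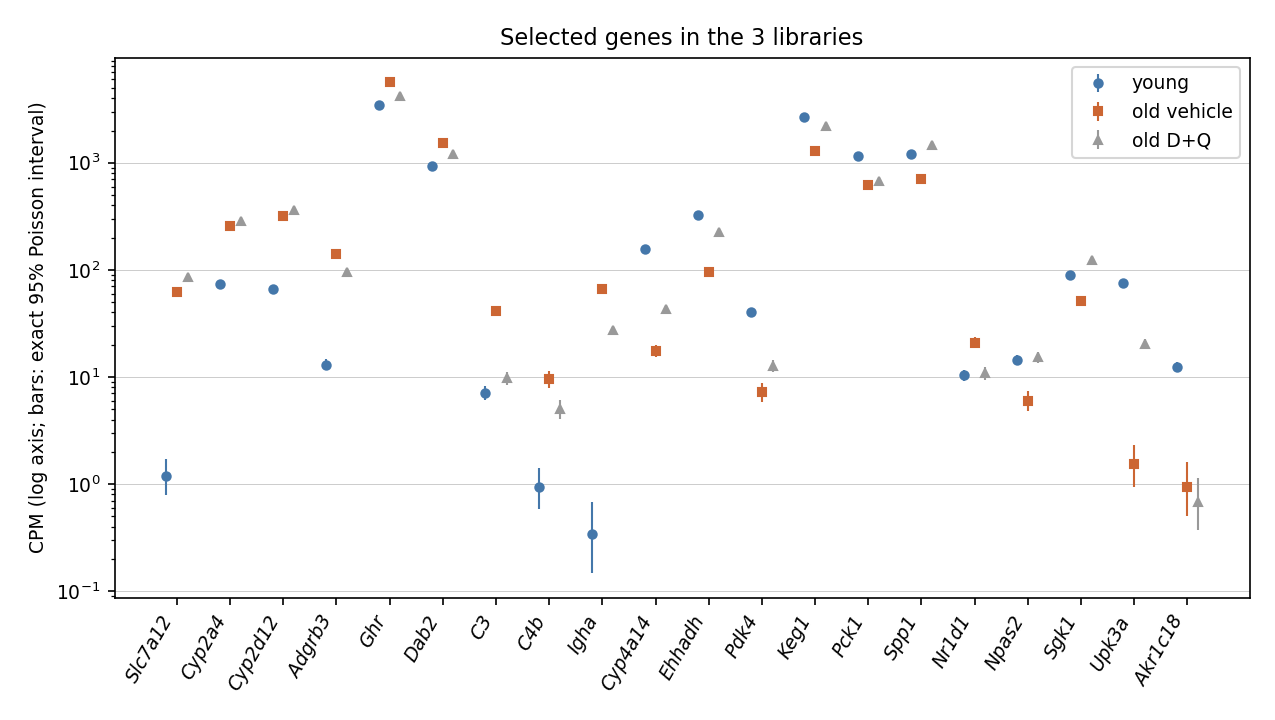
CPM of 20 genes named in the text in the young, old vehicle and old D+Q libraries on a log axis, with exact 95% Poisson intervals. Slc7a12 stands at 1.19 CPM in young against 62.3 in old vehicle, and Cyp4a14 at 155 against 17.5.

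Respiratory chain genes differed little where they are encoded in the nucleus. Of 55 nuclear-encoded respiratory chain genes and 83 cytosolic ribosomal protein genes, 0 passed 1.5-fold in either direction, with median log2 ratios of -0.08 and 0.02. The 13 mitochondrially encoded genes were all below young, with a median of -0.43 and 0 past 1.5-fold. The 50% limit had left out 385 young and 82 old vehicle barcodes rich in them; with no such limit the median was -0.47 and 4 of the 13 were lower past 1.5-fold. With Malat1 and mt- genes left out of the total, 3 were lower.

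The circadian clock runs as a loop in which ARNTL pairs with CLOCK or NPAS2 at E-box elements to switch on the Per, Cry, Nr1d and Ciart genes, whose products then repress the activators. In old vehicle a few members differed from young past 1.5-fold. The activators Npas2 and Arntl were lower and the repressors Nr1d1, Ciart and Per2 higher, while the activator Clock was level. The hour of collection was not given, and its part in these differences was not tested. Npas2 was at 14.5 CPM in young, 6.02 in old vehicle and 15.2 in old D+Q, a log2 ratio of -1.26 (-1.63 to -0.92), and Arntl was at 18.8, 12.4 and 19.6 CPM, a log2 ratio of -0.60 (-0.86 to -0.34). Nr1d1, which encodes the repressor REV-ERBα, was at 10.3, 20.9 and 10.8 CPM, a log2 ratio of 1.02 (0.77 to 1.27). Ciart, a further repressor, was at 23.8, 42.3 and 29.1 CPM. For Npas2, Arntl and Nr1d1 the interval of the old D+Q level included the young value, and old vehicle stood apart. Per2 was at 64.5, 100.3 and 114 CPM, which put both aged libraries above young, and Per1 at 14.4, 19.8 and 19.1 CPM. Clock was at 105, 103 and 102 CPM. In all, 3 of 19 tested core clock genes were higher past 1.5-fold and 2 lower, with a median log2 ratio of 0.06. Across all tested genes the shares were 3.48% and 3.41%. Among 11 output factors, Dbp was at 27.6, 41.2 and 32.3 CPM and Tef at 256, 330.1 and 281 CPM, and Klf10, at 28.8, 17.3 and 22.6 CPM, was the only one past 1.5-fold.

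The promoters of 3 of these rhythmic or hormone-responsive genes are shown because they carry the letters that clock or glucocorticoid receptor proteins are known to bind. Each is the 250 bases upstream of a RefSeq transcription start, read 5′ to 3′ on the strand of the gene (RefSeq table for GRCm38.p6), with matches in capitals. Ciart lies at chr3:95882229-95882478 on the minus strand and has 3 E-boxes (CACGTG), which begin 116, 58 and 44 bases before the start. Per1 lies at chr11:69098699-69098948 on the plus strand, with 1 E-box at 166 bases. Sgk1 lies at chr10:21993640-21993889 on the plus strand, with an E-box at 246 bases and a glucocorticoid response element at 189 bases.
Ciart: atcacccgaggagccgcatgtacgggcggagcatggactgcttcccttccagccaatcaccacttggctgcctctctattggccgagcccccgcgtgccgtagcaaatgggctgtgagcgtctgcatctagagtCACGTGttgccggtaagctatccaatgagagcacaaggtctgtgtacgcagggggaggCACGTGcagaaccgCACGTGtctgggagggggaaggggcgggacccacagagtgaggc
Per1: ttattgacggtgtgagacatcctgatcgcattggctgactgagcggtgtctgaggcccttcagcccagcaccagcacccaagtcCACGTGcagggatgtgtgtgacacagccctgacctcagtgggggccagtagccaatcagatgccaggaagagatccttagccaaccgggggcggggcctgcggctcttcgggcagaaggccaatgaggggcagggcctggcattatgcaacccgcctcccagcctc
Sgk1: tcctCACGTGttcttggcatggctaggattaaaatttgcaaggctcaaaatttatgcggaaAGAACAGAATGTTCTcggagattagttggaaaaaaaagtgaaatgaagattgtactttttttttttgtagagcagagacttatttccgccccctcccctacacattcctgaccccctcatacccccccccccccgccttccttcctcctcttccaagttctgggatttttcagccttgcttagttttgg
Both strands were searched. The E-box is a palindrome present in 6.02% of the 32851 promoters of the table. Of the 16 core clock genes that the table holds, 4 have it in any of their promoters (Bhlhe41, Ciart, Cry1 and Per1). It is also in 2 of 10 clock output factor genes and in 5 of 20 glucocorticoid-responsive genes. The first share is over promoters and the others are over genes, which can have several promoters, so they are unlike measures. The exact letters of the glucocorticoid element were found in 3 of the 32851 promoters. Sgk1 was the only 1 of the 20 glucocorticoid-responsive genes to have them. Of the 3 genes shown, Ciart was higher past 1.5-fold in old vehicle, Per1 was higher within 1.5-fold and Sgk1 was lower.

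Glucocorticoid-responsive genes were also divided. Of 23 tested, 5 were lower and 1 was higher past 1.5-fold, with a median log2 ratio of -0.22, beside 3.41% lower and 3.48% higher over all tested genes. Sgk1, a kinase that raises sodium reabsorption, was at 90.4 CPM in young, 51.3 in old vehicle and 123 in old D+Q, a log2 ratio of -0.82 (-0.94 to -0.69), so the 2 aged libraries lay on opposite sides of young. Fkbp5, a cochaperone of the receptor, was at 149.5, 245 and 236 CPM, a log2 ratio of 0.71. Pdk4 and Angptl4 were 2 of the 5 lower members and are PPARα targets as well. Tsc22d3, a further known target, was at 50.4, 54.5 and 78.5 CPM.

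The largest ratios below young included many urothelial genes. The uroplakins build the membrane plaques of the urothelial surface: Upk3a was at 75.9 CPM in young, 1.52 in old vehicle and 20.3 in old D+Q, a log2 ratio of -5.61 (-6.34 to -5.02), and Upk1b was at 55.0, 6.23 and 12.2 CPM. Upk1a was at 29.9, 1.81 and 8.29 CPM. The cornified envelope gene Sprr1a was at 57.5, 1.30 and 11.2 CPM, and Psca, a surface antigen of urothelium, at 36.7, 1.09 and 11.2 CPM. In each, old D+Q lay between young and old vehicle. Sptssb, a subunit of serine palmitoyltransferase, had 517 counts in young, 4 in old vehicle and 25 in old D+Q, a log2 ratio of -6.08 (-8.13 to -4.88). The surface protein gene Ly6d was at 64.5, 3.12 and 7.23 CPM, the protease gene Ctse at 29.9, 2.10 and 4.34 CPM, and Fxyd3, a regulator of the sodium pump, at 24.1, 3.62 and 7.67 CPM. Igfbp2, which binds insulin-like growth factors, was at 35.5, 2.03 and 5.45 CPM. Another 5 genes with 0 counts in old vehicle had between 27 and 99 in young. They were Aldh3a1, an aldehyde dehydrogenase (99 counts, at least 19.4-fold higher in young when old vehicle is set at a floor of 3 counts), the cornified envelope genes Sprr2f (57 counts, at least 11.2-fold) and Sprr2a3 (47 counts, at least 9.21-fold), Cd200r3 (56 counts, at least 10.98-fold) and the protease gene Tmprss13 (27 counts, at least 5.29-fold). Sprr2f and Sprr2a3 belong to a family of near-identical genes.

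Several tubular injury genes are urothelial genes too. Of 30 tested injury and repair genes, 9 were lower past 1.5-fold, 2 higher and 19 within it, with a median log2 ratio of -0.12, beside 3.41% lower over all tested genes. The keratin gene Krt19 was at 46.0 CPM in young, 4.42 in old vehicle and 19.1 in old D+Q, and the keratin gene Krt18 at 39.5, 4.57 and 18.1 CPM. The calcium-binding protein gene S100a6 was at 155, 24.4 and 40.5 CPM, a log2 ratio of -2.66 (-2.83 to -2.51), and the annexin gene Anxa2 at 32.1, 17.3 and 27.7 CPM. Spp1, encoding osteopontin, was at 1206, 698 and 1467 CPM. When the 275 young and 47 old vehicle barcodes with at least 3 urothelium marker counts were left out, 6 of 29 tested members were lower and 2 higher. The Spp1 log2 ratio went from -0.79 to -0.12, and that of S100a6 was -2.54. This setting did not clear urothelial transcripts, since Upk3a counts lay in 666 young barcodes. Under it the log2 ratio of Ctse went from -3.81 to -1.89, that of Upk1a from -4.02 to -3.26 and that of Sprr1a from -5.42 to -6.03. The classical injury marker Havcr1 was under the floor, with 7 counts in young, 44 in old vehicle and 38 in old D+Q, and so was Lcn2, at 42, 22 and 44 counts.

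Complement genes leaned higher in old vehicle. Of 17 tested components and regulators, 9 were higher past 1.5-fold and 1 lower, with a median log2 ratio of 0.65, beside 3.48% higher and 3.41% lower over all tested genes. The classical pathway is opened by C1q, made largely by macrophages: C1qa was at 4.05 CPM in young, 8.41 in old vehicle and 3.13 in old D+Q. C4b, cleaved next in the cascade, was at 0.938, 9.496 and 4.97 CPM, a log2 ratio of 3.31 (2.68 to 4.06). C3, where all pathways meet, was at 7.12, 41.6 and 9.69 CPM, a log2 ratio of 2.54 (2.30 to 2.80). For C1qa and C3 the old D+Q value lay close to young. C2, which pairs with C4, was at 20.4, 34.9 and 30.7 CPM, the C1 inhibitor gene Serping1 at 25.1, 39.7 and 33.6 CPM, and C7, a part of the membrane attack complex, at 14.1, 32.5 and 34.5 CPM. The one lower member was Cfd, the adipocyte protease adipsin, at 47.2, 9.64 and 2.46 CPM.

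A few barcodes carried much of this difference. In the old vehicle library 18 barcodes held at least 10 Slpi counts each, against 0 in young; they were singled out after the values of Slpi had been seen. These 18 barcodes, 0.458% of the library's counts, held 67.9% of its Slpi counts, 50.7% of C3, 52.1% of Igfbp6, 53.9% of Gbp2, 49.6% of Lyz2 and 37.4% of C4b. The genes that lead in them include Serpinb2, Prg4, Lrrn4, Upk3b, Alox15 and Muc16. Without them 4 of 15 tested complement genes were higher past 1.5-fold and 1 lower, and the log2 ratios were 1.53 for C3, 2.65 for C4b and 3.38 for Slpi. Without barcodes that carried at least 3 counts of leukocyte and plasma cell markers, 5 of 13 were higher, and without urothelium marker barcodes 6 of 16. These 2 settings leave out some of the same 18 barcodes and are not separate checks. The 18 barcodes held 62.7% of the old vehicle counts of Upk3b and 49.6% of those of Lyz2, a gene of the macrophage list. Upk3b was the only 1 of the 11 listed urothelium markers that was higher in old vehicle than in young. The cell type of the 18 barcodes was not tested. Igfbp6, a growth factor binding protein, was at 2.60 CPM in young, 13.8 in old vehicle and 3.09 in old D+Q, a log2 ratio of 2.40 that became 1.35 without the 18 barcodes. Gbp2, an interferon-induced GTPase, was at 4.09, 14.9 and 2.60 CPM, and its log2 ratio went from 1.86 to 0.76. The lysozyme gene Lyz2, made by macrophages, was at 5.93, 30.4 and 4.48 CPM, with a log2 ratio that went from 2.35 to 1.37.

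Immunoglobulin transcripts were scarce in young and present in both aged libraries. Igha, the heavy chain of IgA, had 8 counts in young, 910 in old vehicle and 563 in old D+Q, which is 0.341, 66.0 and 27.1 CPM, a log2 ratio of 7.51 (6.61 to 8.81). Jchain, which joins IgA and IgM units, was at 2.13, 40.5 and 18.1 CPM, and Ighm, the IgM heavy chain, at 1.24, 21.5 and 25.6 CPM. Ighg2c had 0 counts in young, 423 in old vehicle and 188 in old D+Q, at least 239.7-fold higher in old vehicle than in young at a floor of 3 counts. The top 10 barcodes held 82.3% of the old vehicle counts of Ighg2c but 16.6% of those of Jchain, which lay in 416 barcodes. Without leukocyte and plasma cell marker barcodes the log2 ratio of Igha went from 7.51 to 8.87 and that of Ighg2c from 10.49 to 8.35. All 4 of the 12 listed immunoglobulin genes that passed the floor were higher, and Igkc had 0 counts in both libraries. The heavy chain genes lie in a family of close copies. Of 6 antigen presentation genes of MHC class II, 2 were higher, beside 3.48% higher and 3.41% lower over all tested genes. They were H2-Aa at 26.0, 47.3 and 27.7 CPM and H2-Eb1 at 28.5, 47.6 and 28.1 CPM. The macrophage marker sum was 61.4, 117 and 62.0 CPM, with 8 of its 10 markers higher in old vehicle. Lyz2 went from 5.93 CPM in young to 30.4 in old vehicle, and 49.6% of those old vehicle counts lay in the 18 Slpi-rich barcodes. Csf1r went from 27.9 to 46.0 CPM, while Cd68 (2.00 and 1.81) and Mrc1 (3.58 and 3.55) were not higher. Without barcodes that carried leukocyte and plasma cell markers 2 of the 6 class II genes were again higher. The log2 ratio of H2-Aa was then 0.85 against 0.87 and that of H2-Eb1 0.78 against 0.74. This setting left out 119 young and 166 old vehicle barcodes, while Csf1r counts lay in 544 and 526. It did not clear leukocyte transcripts, and the cells behind the class II difference were not tested. Of 29 interferon-response genes 1 was higher (Gbp2) and 1 lower (Ifi44, at 27.2, 15.9 and 17.1 CPM), with a median log2 ratio of -0.14. Among 19 chemokine and inflammatory signalling genes, the macrophage growth factor gene Il34 was at 29.6, 63.7 and 52.3 CPM and the epithelial chemokine gene Ccl28 at 9.34, 18.3 and 13.0 CPM, and 0 were lower.

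Genes tied to cell senescence differed in both directions. For comparison, 3.48% of all tested genes were higher past 1.5-fold and 3.41% lower. Of 32 cell cycle arrest and p53 target genes, 3 were higher and 3 lower past 1.5-fold, with a median log2 ratio of 0.03. Without urothelium or adipocyte marker barcodes, or with no limit on mt- counts, 3 were higher and 1 lower. Gdf15, a secreted stress signal, was at 8.57 CPM in young, 16.0 in old vehicle and 12.9 in old D+Q. The p53 target Zmat3 was at 11.9, 20.5 and 16.7 CPM and the cyclin gene Ccnd1 at 53.04, 83.7 and 86.6 CPM. Old D+Q lay above young in all 3. The cell cycle inhibitor gene Cdkn1a was at 8.78, 7.76 and 7.28 CPM, with a log2 ratio of -0.18 (-0.53 to 0.16), and Cdkn2a had 8, 1 and 2 counts, too few to compare. Perp, a p53 target of cell junctions, was at 25.2, 14.3 and 19.2 CPM. Of 27 secreted factors linked to senescence, 3 were higher and 6 lower, with a median of -0.01, and without urothelium marker barcodes 2 of 23 were higher and 3 lower. Serpine2, a protease inhibitor, was at 8.91, 19.4 and 23.001 CPM, and the growth factor gene Bmp2 at 9.42, 2.97 and 4.29 CPM, a log2 ratio of -1.65 that became -0.67 without urothelium marker barcodes. None of 12 BCL2 family genes passed 1.5-fold: Bcl2 was at 48.1, 58.1 and 55.4 CPM and Bcl2l1 at 87.4, 89.3 and 85.5 CPM. Of 30 longevity-linked genes, 3 were higher and 0 lower. Beside Ghr these were the kinase gene Mtor, at 192, 311 and 207 CPM, and the receptor gene Igf1r, at 637, 969 and 764 CPM.

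**Figure D4:**
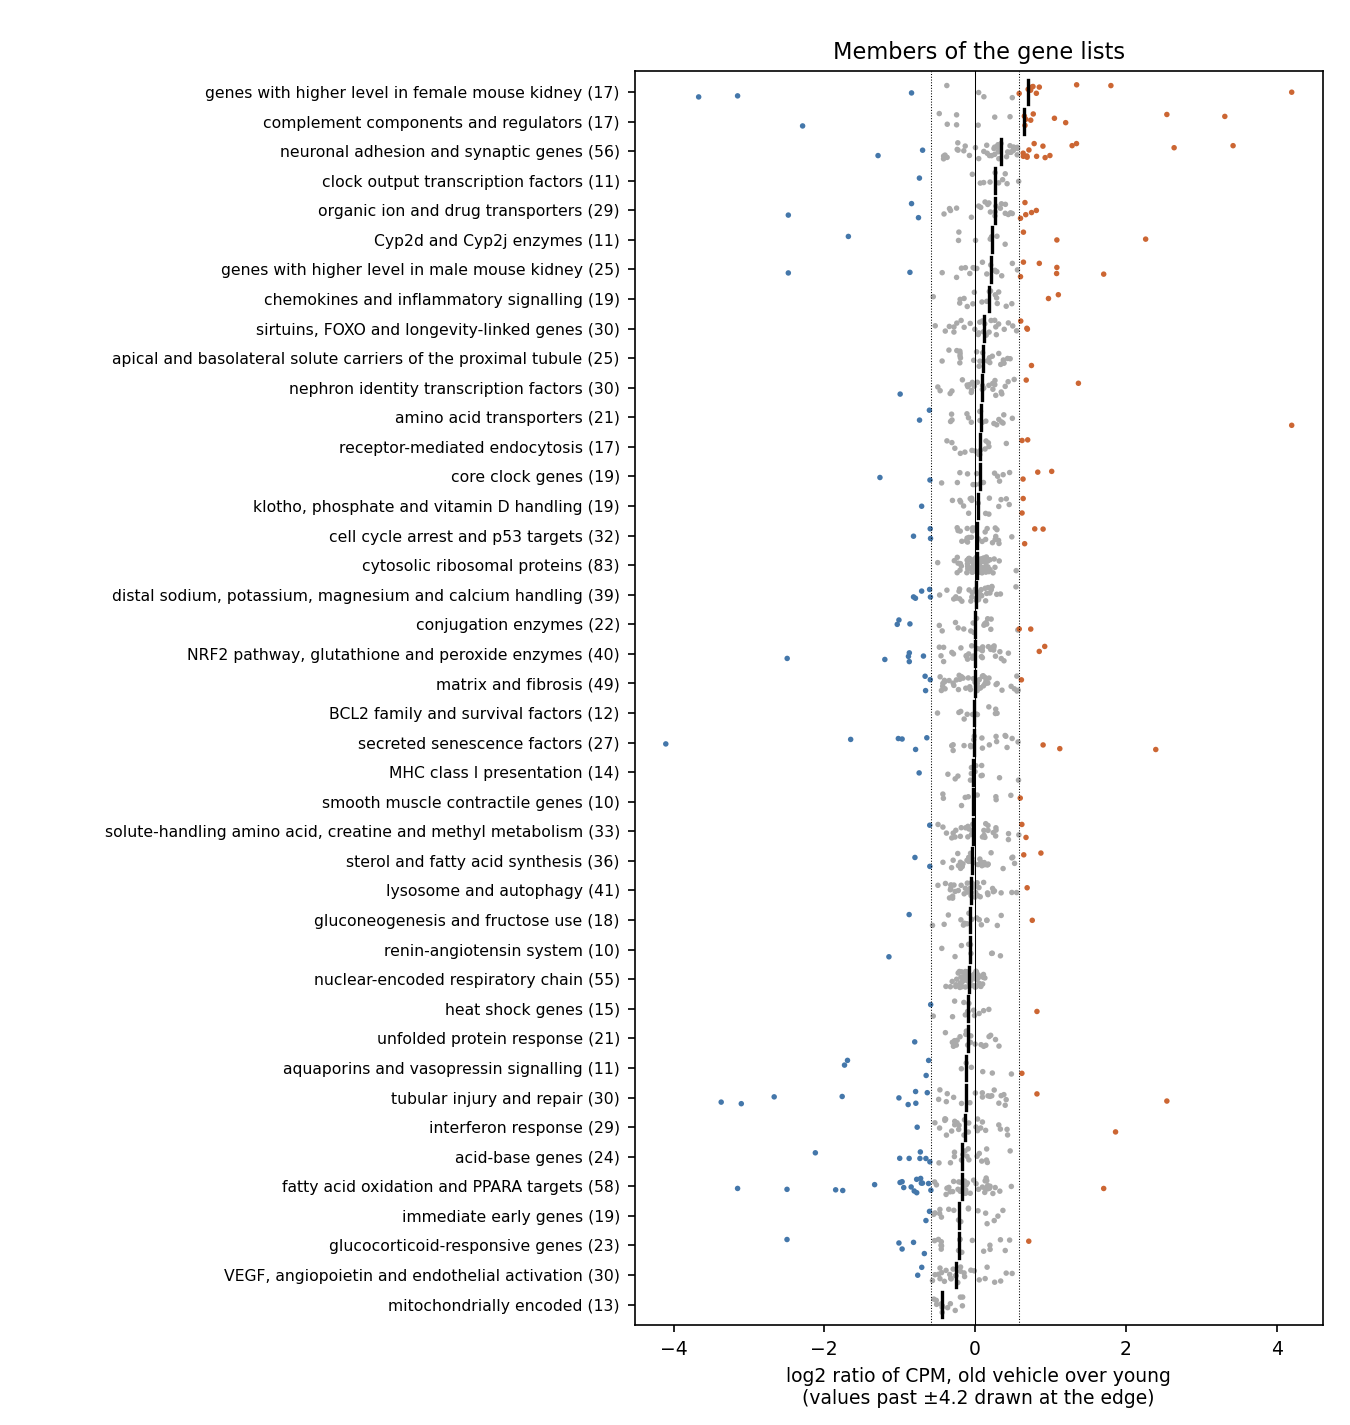
Log2 ratios of old vehicle to young for the tested members of each gene list with at least 10 tested genes (number in brackets), with the list median as a black bar and dotted lines at 1.5-fold. Female-biased and complement genes have the highest medians (0.70 and 0.65), and most other lists centre near 0 with single genes far out.

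Genes of the distal segments were lower in old vehicle for a minority of their number. Over all tested genes 3.41% were lower and 3.48% higher. Of 24 acid-base genes 0 were higher and 7 lower, with a median log2 ratio of -0.17, and 2 of these mark intercalated cells, the acid- and base-secreting cells of the collecting duct. The bicarbonate carrier gene Slc4a9 was at 40.9 CPM in young, 20.4 in old vehicle and 18.4 in old D+Q, and the proton pump subunit gene Atp6v0d2 at 21.7, 13.1 and 11.9 CPM. The sum of 8 intercalated cell markers was 136, 95.5 and 77.4 CPM, with all 8 lower in old vehicle. The carbonic anhydrase gene Car3, an adipocyte marker, was at 143, 32.9 and 13.7 CPM. Of 39 distal ion-handling genes 5 were lower and 0 higher, among them the magnesium channel gene Trpm6 (45.6, 30.0 and 32.3 CPM) and the calcium buffer gene Calb1 (108, 65.9 and 69.6 CPM). In the water pathway 4 of 11 genes were lower and 1 higher, and 2 of 11 were lower without urothelium marker barcodes or with barcodes thinned to 1000 UMIs, as were 2 of 10 without adipocyte marker barcodes. The water channel gene Aqp3 was at 40.8, 26.0 and 38.4 CPM, and Akr1b3, the aldose reductase that makes sorbitol in the medulla, was at 84.4, 25.4 and 29.3 CPM, a log2 ratio of -1.73 that was -1.04 without urothelium marker barcodes. Aqp2, the vasopressin-regulated channel, was at 27.7, 38.6 and 63.9 CPM. Renin, encoded by Ren1, was at 14.0, 6.31 and 4.48 CPM, a log2 ratio of -1.14 (-1.51 to -0.80), with 61.0% of its young counts in 10 barcodes. Of 30 endothelial genes 2 were lower, a share near that over all genes, and 6 of 28 were lower as a mean over barcodes and 8 of 28 with thinned barcodes. The 2 were the angiopoietin receptor gene Tek at 80.6, 47.6 and 65.3 CPM and the fenestral diaphragm gene Plvap at 69.3, 42.4 and 47.2 CPM, and the endothelial marker sum was 723, 562 and 623 CPM. Of 49 matrix and fibrosis genes 1 was higher and 3 lower, with a median of -0.00, and with thinned barcodes 4 of 48 were higher. The anti-ageing hormone gene Kl, encoding klotho, was at 280.2, 268 and 282 CPM.

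Long genes stood higher in old vehicle than short ones. When genes were ordered by the length they span in the genome, taken from a GENCODE annotation that matched 98.5% of the tested genes by identifier, the median log2 ratio was -0.16 for the 526 genes of up to 3 kb, -0.00 for the 3692 of 10 to 30 kb and 0.24 for the 466 over 300 kb. Past 1.5-fold, 13.7% of the genes over 300 kb were higher and 3.86% lower, while of the genes up to 3 kb 2.09% were higher and 9.51% lower. The ratio of old D+Q to young, which shares the young library, had medians of -0.15 in the shortest class and 0.06 in the longest. Neuronal adhesion and synaptic genes, a list drawn up after such genes had been seen among the differences, are long as a rule, and 53 of the 56 tested members span over 300 kb. Of those 53, 14 were higher and 2 lower with a median of 0.34, and of the 413 other genes over 300 kb, 50 were higher and 16 lower with a median of 0.23. Beside Adgrb3 and Pcdh11x they included Cntnap5a, at 24.6 CPM in young, 62.4 in old vehicle and 37.3 in old D+Q, and the scaffold gene Anks1b, at 34.4, 83.9 and 60.8 CPM. The synaptic adhesion gene Nrxn3 was at 37.8, 75.2 and 67.0 CPM. The shares of mt- genes and of Malat1 were lower in old vehicle as given above, and their part in the length trend was not tested.

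**Figure D5:**
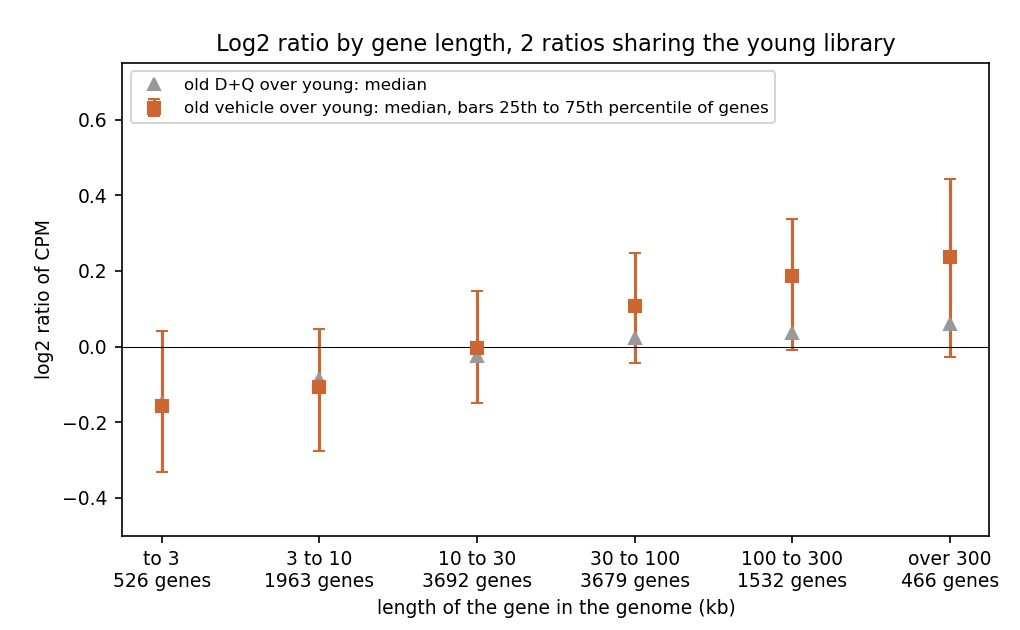
Median log2 ratio of old vehicle to young (squares, bars from the 25th to the 75th percentile of genes) and of old D+Q to young (triangles) in 6 classes of gene length in kb. The old vehicle medians climb from -0.16 in the shortest class to 0.24 in the longest, and the old D+Q medians from -0.15 to 0.06.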

How the data were processed

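Values are raw UMI counts per gene and barcode, as the authors deposited them, not normalised; per the labels' protocols they come from 3′ single-cell libraries sequenced on Illumina. The aligner, the barcode selection and the roles of the 2 builds that the submitters' processing notes name (GRCm39 and mm10) were not given in the sources used here. Barcodes with over 50% mt- counts were left out, doublets were kept, and counts were summed per library and scaled to CPM. Of 33696 gene identifiers, 52 share theirs with another and were treated separately. Log2 ratios used a prior of 0.5 counts. CPM have exact Poisson intervals and ratios exact conditional binomial intervals at 95%, which cover counting error only. Genes needed 30 counts over both libraries and a mean of 5 CPM. The script was tested on simulated counts.

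Genes named are the 15 largest log2 ratios in each direction (with 20 CPM or more and 50 counts or more on the higher side, interval excluding 1.5-fold), the 8 largest CPM differences, 5 genes with 0 counts in 1 library, and the leading or role-bearing members of 49 gene lists. mt-, ribosomal protein, haemoglobin, immunoglobulin, sex-chromosome and provisionally named genes stayed out of the first 3 sets. Havcr1, Lcn2 and Cdkn2a, under the floor, were added after their values were seen. Some genes that these rules select are not reported here. Genes, lists and 18 marker lists were chosen with earlier results of these data known. Tools were Python 3.11.15, numpy 2.4.6, pandas 2.3.3, scipy 1.17.1, scanpy 1.11.5 (Scrublet, for an alternative), matplotlib 3.10.9, and R 4.3.3 with edgeR 4.0.16 (TMM scaling, for an alternative).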

Additional observations from a re-analysis of the deposited data

How the results depend on the processing

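Against 419 genes higher and 410 lower, no floor beyond 1 count gave 4158 and 4321, a floor of 20 CPM 214 and 140, and a 2-fold threshold 100 and 102. Leaving Malat1 and mt- genes out of the total, chosen after the data were seen, gave 329 and 686, turned the median of proximal tubule solute carriers from 0.10 to -0.0043, and turned the log2 ratio of the proximal tubule marker sum from 0.06 to -0.026. The distal convoluted tubule marker sum, at 0.14, turned to -0.11 as a mean over barcodes and to -0.14 with barcodes thinned to 1000 UMIs. Without adipocyte marker barcodes Fgf14 turned from -1.29 to 0.21 and Meg3 from -0.76 to 1.18, and without urothelium marker barcodes Meg3 turned to 0.56. The other alternatives were a limit of 25% mt- counts or none, a total without mt-, haemoglobin and ribosomal protein genes, doublets left out (536 young and 236 old vehicle barcodes), TMM and median of ratios scaling, leaving out leukocyte and plasma cell marker barcodes or Slpi-rich barcodes (all settings that leave out such barcodes were also chosen after the data were seen), and for each gene leaving out its top barcode. Of the gene ratios under all of these, 2573 stayed within the counting interval of the value reported, 322 moved outside it and 3 turned from past 1.5-fold to the other sign. Among ratios reported within 1.5-fold there were 20 further changes of sign, in 6 genes, the widest in Acta2 (-0.43 to 0.57 with a limit of 25% mt- counts and 0.51 without its top barcode). Of the list medians 695 stayed, 38 moved and 1 reversed. Without the top barcode the Igha log2 ratio was 9.20, a size that rests on few young counts and the prior. No paired analysis was possible because each group is 1 library with no replicate number. Depth limits what can be said of genes under 5 CPM, where 3 counts are 0.128 CPM in young and 0.217 in old vehicle.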

Other observations

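Of 5 haem and haemoglobin genes 3 were higher in old vehicle past 1.5-fold, although red cells had been lysed. Shares over all tested genes were 3.48% higher and 3.41% lower. Hbb-bs was at 146 CPM in young, 294 in old vehicle and 163 in old D+Q, and the near-identical pair Hba-a1 and Hba-a2 at 77.4 and 57.5 CPM in young, 121 and 86.6 in old vehicle and 53.7 and 39.7 in old D+Q. Hbb-bt was within 1.5-fold, at 39.7, 51.3 and 25.3 CPM. Only 1 of the 5 was higher with a limit of 25% mt- counts, with Malat1 and mt- genes left out of the total, or without adipocyte or leukocyte and plasma cell marker barcodes. The 10 barcodes richest in Hbb-bs held 51.1% of its young and 27.0% of its old vehicle counts, and without the richest barcode of each library its log2 ratio went from 1.01 to 1.76. Stress programmes differed by single genes. Among 15 heat shock genes the small chaperone gene Cryab was higher, at 37.3, 65.9 and 52.0 CPM, and Dnajb1 lower, at 7.12, 4.71 and 7.96 CPM. The endoplasmic reticulum gene Sdf2l1 was the only one of 21 unfolded protein response genes past 1.5-fold, at 6.61, 3.77 and 4.63 CPM. Of 41 lysosome and autophagy genes 1 was higher, the macrophage protease gene Ctss, at 6.69, 10.8 and 7.52 CPM. Among 19 immediate early genes Fos was at 12.1, 7.68 and 1.11 CPM. Proliferation genes were low in all libraries, and Top2a, a topoisomerase of dividing cells, was at 8.14, 3.48 and 2.80 CPM.

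Sterol and fatty acid synthesis genes had 2 of 36 higher and 2 lower, with a median log2 ratio of -0.05. Among all tested genes 3.48% were higher and 3.41% lower. The fatty acid synthase gene Fasn was at 8.48 CPM in young, 4.86 in old vehicle and 4.05 in old D+Q and the sterol demethylase gene Cyp51 at 79.9, 52.7 and 43.4 CPM. The lanosterol synthase gene Lss was at 3.84, 7.03 and 6.03 CPM. In these 3 genes the values lay on both sides of young within 1 pathway. The remaining lists held few genes past 1.5-fold: 2 of 19 klotho, phosphate and vitamin D genes were higher and 1 lower, 0 of 14 MHC class I genes were higher and 1 lower, 1 of 10 smooth muscle genes was higher and 0 lower, and 2 of 33 amino acid, creatine and methyl metabolism genes were higher and 1 lower. Of 7 long noncoding RNAs 1 was higher, Snhg11, at 514, 875 and 787 CPM, and 1 was lower, Meg3, at 8.87, 5.22 and 3.91 CPM, with 87.0% of its young counts in 10 barcodes. The Meg3 log2 ratio of -0.76 turned to 1.18 without adipocyte and to 0.56 without urothelium marker barcodes.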
